A study of Mus musculus with 6 samples.

Results

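Pttg1, C1qtnf2, Cyfip2 and Gm12167 are neighbours on mouse chromosome 11, between 43 and 47 Mb, and make up 4 of the 30914 genes in a table of heart RNA. They were chosen on their measured values in these same 6 libraries, for a difference between the groups with intermediate values in 1 Ang II library. Their levels and group differences are therefore a description, with no test. As surroundings, the 38 other genes of the table that lie wholly within the same window were taken whatever their values.

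The hearts came from male wild-type C57BL/6J mice, 8 weeks old at the start. An osmotic pump gave all of them angiotensin II (Ang II, a peptide hormone that raises blood pressure and enlarges the heart) at 1 μg/kg/min for 4 weeks. The Ang II group (n = 3) had no Tec, and the Ang II + Tec group (n = 3, called the treated hearts) also had tectochrysin (Tec), a plant flavonoid, at 5 mg/kg over the last 2 weeks. Hearts without Ang II were not analysed here. Expression is in FPKM, fragments scaled to the length of the transcript and to the mapped fragments of the library, and values are listed in the order of replicates 1, 2 and 3.

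Securin, the product of Pttg1, holds the protease separase inactive until the anaphase-promoting complex marks securin for destruction, which lets sister chromatids part. C1qtnf2 encodes CTRP2, a secreted relative of adiponectin in the C1q/TNF-related family. Cyfip2 encodes a subunit of the WAVE regulatory complex, which passes signals from the GTPase Rac to the Arp2/3 complex and so to the branching of actin filaments. Gm12167 is a predicted noncoding gene annotated as antisense.

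The libraries differed in ways that their groups do not explain. Heart muscle markers were abundant in each, with summed levels over 7 genes of 10317, 8446 and 10138 FPKM for Ang II and 10064, 9362 and 9300 FPKM for the treated hearts, Actc1 being the most abundant. The 3 atrial markers, led by Myl7, summed to 636, 797 and 0.61 FPKM for Ang II and to 0.29, 1544 and 2.62 FPKM for the treated hearts. The labels' extraction text speaks of an adipose type, and the 4 adipocyte markers, led by Cfd, summed to 11.8, 33.4 and 0.86 FPKM for Ang II and to 0.23, 78.7 and 2.65 FPKM for the treated hearts. Atrial transcripts were abundant in 3 libraries, from both groups, and near 0 in the rest, and adipocyte markers were highest in the same 3. On the first principal component, with 68.7% of the variance, Ang II replicate 3 scored 19.2, among the treated hearts (28.6, 2.4 and 27.0) and away from Ang II replicates 1 and 2 (-31.2 and -46.0). In whole tissue, fewer cells of a type and less RNA per cell cannot be told apart.

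Pttg1 (ENSMUSG00000020415, chromosome 11 from 43420250 to 43426251, minus strand) measured 2.45, 2.76 and 10.77 FPKM with Ang II alone, against 25.21, 26.10 and 25.81 FPKM with Tec. The treated hearts were all high and close together, replicates 1 and 2 of Ang II were low, replicate 3 was intermediate, and the groups did not overlap. The mean was 5.33 ± 4.72 FPKM (SD, n = 3) for Ang II and 25.7 ± 0.454 FPKM (SD, n = 3) for the treated hearts, a ratio of 4.83. On the scale of log2(FPKM + 1), which understates the change of low values, the difference was 2.32 (standard error 0.43). Ang II replicate 3 was 4.40 times replicate 1, 3.90 times replicate 2 and 0.419 of the treated mean. The coefficient of variation was 88.5% for Ang II and 1.77% for the treated hearts. The annotation gives the gene 10 transcripts with up to 6 exons.

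Cyfip2 (ENSMUSG00000020340, chromosome 11 from 46193850 to 46312859, minus strand) measured 1.57, 1.28 and 7.55 FPKM with Ang II alone, against 15.23, 13.54 and 13.45 FPKM with Tec. The groups were again separate, with Ang II replicate 3 between the low pair and the high treated hearts. It stood at 4.81 times replicate 1, 5.90 times replicate 2 and 0.536 of the treated mean. Group means of 3.47 ± 3.54 FPKM (SD, n = 3) and 14.1 ± 1.00 FPKM (SD, n = 3) gave a ratio of 4.06 and a log2 difference of 2.03 (standard error 0.46). The gene spans 119 kb, with up to 31 exons. Fndc9, which encodes a protein with a fibronectin domain, lies within it on the opposite strand without touching an exon, and measured 0, 0.05 and 0.04 FPKM with Ang II alone and 0.05, 0.12 and 0.09 FPKM with Tec. Fndc9 was thus near 0 in each library, at levels far below Cyfip2.

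Gm12167 (ENSMUSG00000085853, chromosome 11 from 46342287 to 46345020, plus strand) measured 0.64, 0.19 and 6.51 FPKM with Ang II alone, against 11.65, 10.95 and 10.24 FPKM with Tec. Replicates 1 and 2 of Ang II were near 0, replicate 3 was well above them, and the treated hearts were higher still, without overlap. Replicate 3 was 0.595 of the treated mean, and 10.2 and 34.3 times replicates 1 and 2, ratios that rest on values below 1 FPKM. Group means of 2.45 ± 3.53 FPKM (SD, n = 3) and 10.9 ± 0.705 FPKM (SD, n = 3) gave a ratio of 4.47 and a log2 difference of 2.29 (standard error 0.62). The single annotated transcript has 2 exons and 578 bases. Whether the libraries kept the strand is not given in the sources used here, so the strand of its reads is unknown.

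C1qtnf2 (ENSMUSG00000046491, chromosome 11 from 43474276 to 43491525, plus strand) measured 9.35, 11.10 and 3.58 FPKM with Ang II alone, against 1.92, 2.14 and 1.58 FPKM with Tec. Here the treated hearts were low, Ang II replicates 1 and 2 were high and replicate 3 was intermediate, and the groups did not overlap. Replicate 3 was nearer to the treated hearts, at 1.90 times their mean, while replicates 1 and 2 were 2.61 and 3.10 times replicate 3. Group means of 8.01 ± 3.94 FPKM (SD, n = 3) and 1.88 ± 0.282 FPKM (SD, n = 3) gave a level 4.26 times as high with Ang II alone and a log2 difference of -1.53 (standard error 0.34). The gene has 3 transcripts with up to 4 exons.

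**Figure D1:**
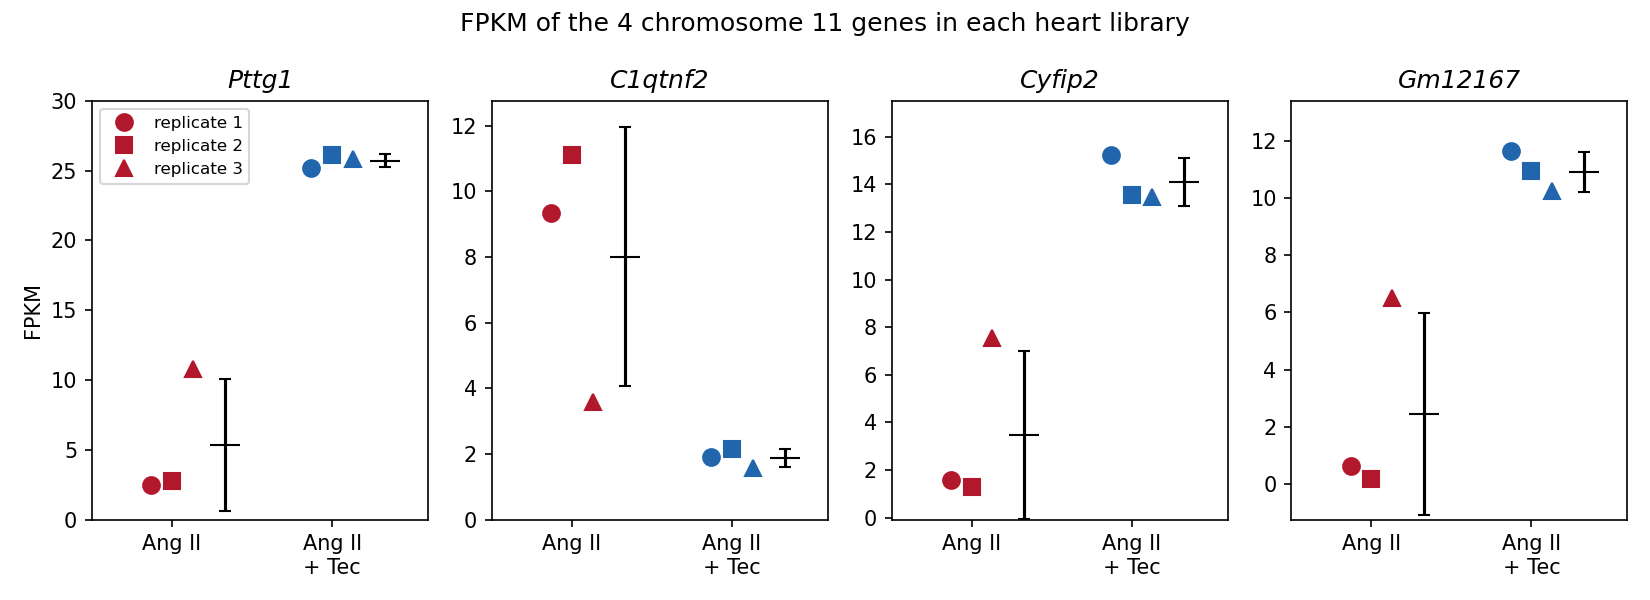
FPKM of Pttg1, C1qtnf2, Cyfip2 and Gm12167 in each heart library (vertical axis, linear, a separate scale for each gene), by group, with the mean and SD of each group (n = 3). Ang II replicate 3 lies between the other Ang II hearts and the treated hearts in each panel, for example at 10.77 FPKM for Pttg1 and at 7.55 FPKM for Cyfip2.

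Since FPKM is scaled by length, levels can be ordered between genes. In each treated heart Pttg1 was highest, followed by Cyfip2, Gm12167 and C1qtnf2, and no neighbours in that order overlapped. In Ang II replicates 1 and 2 C1qtnf2 was highest and Gm12167 lowest, while replicate 3 had the order of the treated hearts. Among treated hearts C1qtnf2 varied most, with a coefficient of variation of 15.0%, beside 7.12% for Cyfip2 and 6.44% for Gm12167.

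The share of FPKM from the mitochondrial genome moved with these levels, at 41.3%, 40.1% and 48.9% for Ang II and 51.3%, 49.6% and 52.5% for the treated hearts. Rescaled to the same sum outside that genome, the log2 differences were 2.35 for Pttg1, 2.05 for Cyfip2, 2.31 for Gm12167 and -1.51 for C1qtnf2, close to the values before. Rescaling by the median of ratios, which moved the median log2 difference over tested genes from -0.17 to 0.01, gave 2.52, 2.20, 2.41 and -1.34 in the same order. Without Ang II + Tec replicate 2, the treated heart with atrial transcripts, they were 2.31, 2.05, 2.28 and -1.60. Without Ang II replicate 3 each was larger in size, at 2.89, 2.64, 3.09 and -1.96.

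Genes whose groups overlapped lie between and beside these 4. Slu7, which encodes a splicing factor, sits in the gap of 48 kb between Pttg1 and C1qtnf2 and measured 5.61, 5.74 and 5.50 FPKM with Ang II alone and 5.25, 5.84 and 5.24 FPKM with Tec. Its groups overlapped, with a log2 difference of -0.04 (standard error 0.10, adjusted p = 0.832 by limma). Between C1qtnf2 and Cyfip2 lie 2702 kb with 26 genes of the table, 11 of them tested. Cyfip2 and Gm12167 are 29.4 kb apart, with 0 genes wholly between them. The next tested gene beyond Gm12167 is Med7, which encodes a Mediator subunit, at 3.43, 4.83 and 2.85 FPKM with Ang II alone and 3.24, 3.34 and 3.10 FPKM with Tec. Its groups also overlapped (log2 difference -0.13, standard error 0.16, limma adjusted p = 0.634).

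A gene was tested where FPKM reached 0.5 in 3 or more libraries, which held for 13089 genes, among them the 4 chosen genes and 16 of the 38 window genes. A call required adjusted p < 0.05 in limma and a log2 difference of 1 or more in either direction. None of the 16 (0) was called, beside 0.160% of all tested genes, and 3 of 16 had unadjusted p < 0.05 (18.8%, beside 18.6% of all tested genes). The groups did not overlap in 4 of 16 (25%), beside 21.8% of all tested genes and 20.4% of the 1066 tested genes elsewhere on chromosome 11. Without Ang II replicate 3 that count was 9, where 60.5% of all tested genes did not overlap, and without Ang II + Tec replicate 2 it was 7, where 48.1% did not. The shares with all libraries were near the background. The log2 differences of the 16 ran from -0.65 to 0.39 with a median of -0.15. The 4 chosen genes lay outside that range, which their choice for a group difference in these libraries favours.

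The largest difference among the 16 belonged to Adra1b, which encodes the alpha-1B adrenergic receptor, at 10.71, 8.12 and 9.45 FPKM with Ang II alone and 4.33, 5.96 and 6.80 FPKM with Tec. Its treated hearts were all lower, but Ang II replicate 3 lay between replicates 1 and 2 (log2 difference -0.65, standard error 0.17, limma adjusted p = 0.201). Ublcp1, which encodes a phosphatase of nuclear proteasomes, was higher in each treated heart, at 7.28, 8.31 and 9.15 FPKM against 10.36, 12.42 and 10.56 FPKM (0.39, standard error 0.13, limma adjusted p = 0.228). Ttc1, a gene with tetratricopeptide repeats, was at 17.05, 19.06 and 14.58 FPKM against 14.10, 13.99 and 13.72 FPKM (-0.25, standard error 0.12, limma adjusted p = 0.303). Gm12174 was at 9.99, 13.16 and 8.62 FPKM against 6.51, 7.86 and 6.31 FPKM (-0.54, standard error 0.17, limma adjusted p = 0.221), and as a processed pseudogene it may share reads with a parent gene. On the median-of-ratios scale the differences were -0.44 for Adra1b, 0.61 for Ublcp1, -0.32 for Gm12174 and -0.02 for Ttc1. The groups of Adra1b and Ttc1 then overlapped, and those of other window genes no longer did. The number without overlap thus stayed at 4 of 16, beside 21.8% of all tested genes. In the deposited values of Ublcp1, Ttc1 and Gm12174 the Ang II heart nearest to the treated group was replicate 3, and none of these genes was called.

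**Figure D2:**
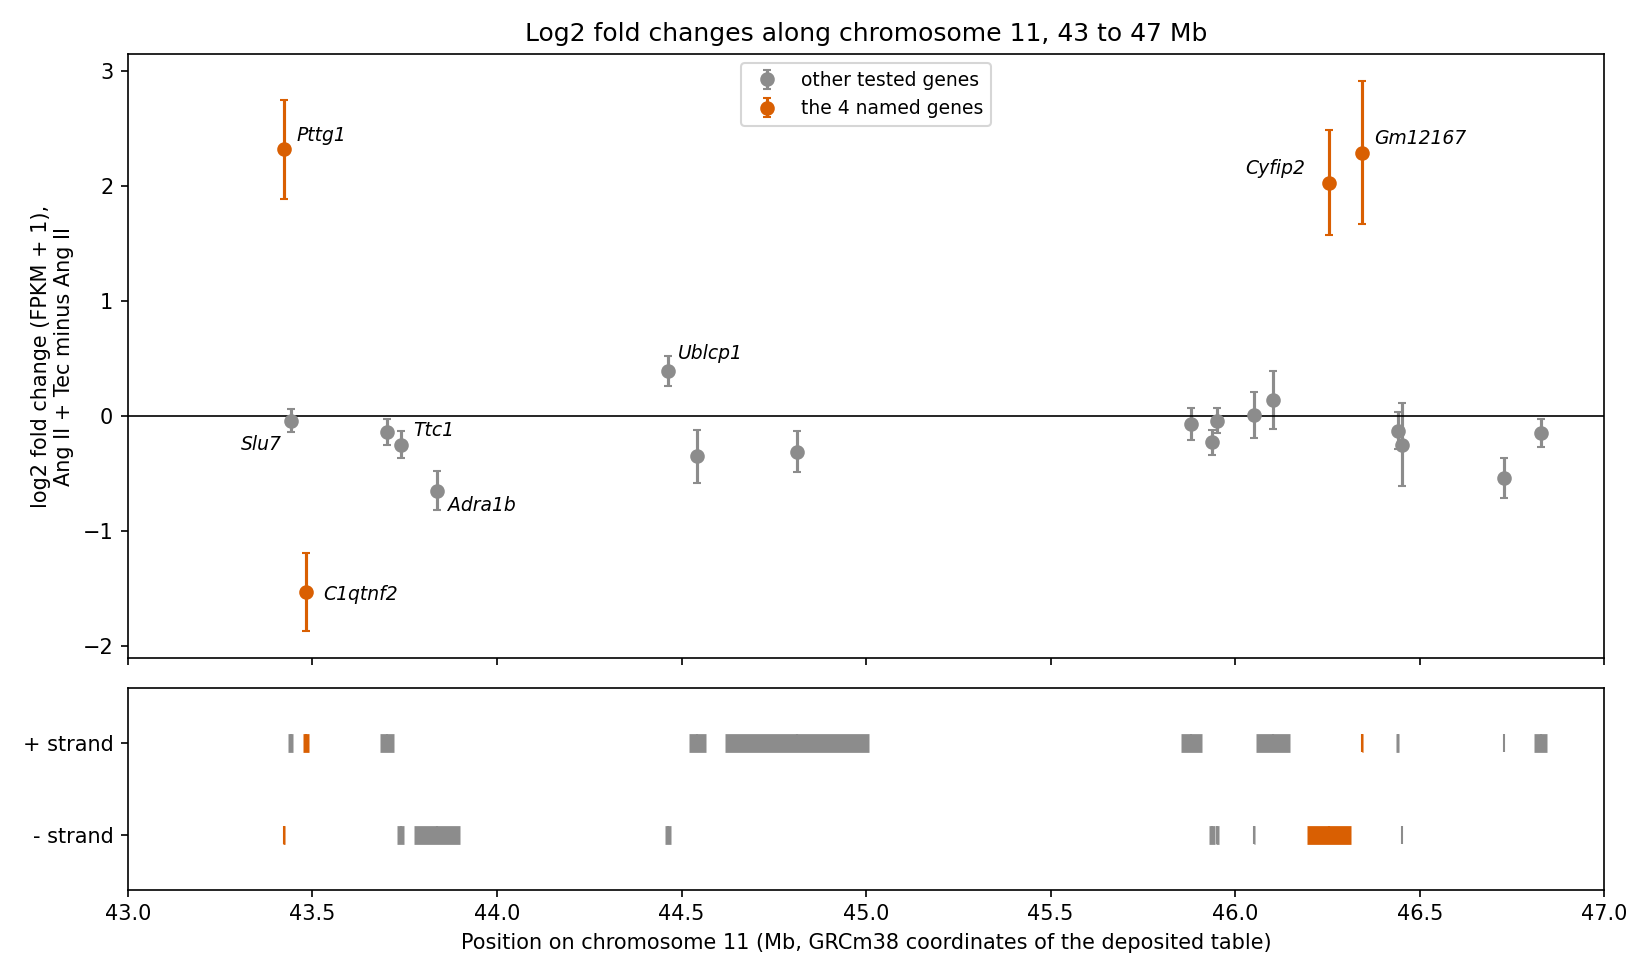
Log2 difference (vertical axis, Ang II + Tec minus Ang II, log2(FPKM + 1), with limma standard errors, n = 3 per group) of the tested genes of chromosome 11 from 43 to 47 Mb, by position (horizontal axis, Mb). Pttg1, C1qtnf2, Cyfip2 and Gm12167, chosen for a group difference in these libraries, lie at 2.32, -1.53, 2.03 and 2.29. The 16 other genes lie between -0.65 and 0.39.

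Beside Pttg1, 30 genes that act with securin were listed: separase, mitotic cyclins and their kinase, the anaphase-promoting complex with its activators and E2 enzymes, cohesin, checkpoint genes and Pttg1ip. Of the 26 tested, limma called 0, and 6 had unadjusted p < 0.05 (23.1%, beside 18.6%). The groups did not overlap in 8 (30.8%, beside 21.8%), each lower in the treated hearts. Of these 8, Ccnb2, Ube2c and Mad2l1 reached the limit for testing only through the Ang II libraries, and Cdc20 mainly through them. This favours a lower level with Tec, so nothing is read from the counts or the median of this list. The log2 difference was negative in 25 of 26 with a median of -0.23, where 80% of all tested genes were negative, and on the median-of-ratios scale in 15 of 26 with a median of -0.04, where 48% of all tested genes were negative.

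Cdc20, which activates the anaphase-promoting complex towards securin, measured 1.24, 2.34 and 0.88 FPKM with Ang II alone and 0.27, 0.53 and 0.31 FPKM with Tec. It was lower in each treated heart (log2 difference -0.82, standard error 0.21, limma adjusted p = 0.201), and it was called without Ang II replicate 3 (limma adjusted p = 0.0106), in a fit that called 544 of 12900 genes. The cyclin gene Ccnb2 was at 1.25, 3.28 and 0.85 FPKM against 0.18, 0.48 and 0.32 FPKM. Ube2c and Mad2l1 were likewise below 0.5 FPKM in each treated heart. In the deposited values, before any rescaling, the other tested genes without overlap were Cdc16 (-0.51), Ube2s (-0.30), Anapc11 (-0.29) and Rad21 (-0.23). Separase (Espl1), the target of securin, was too low to be tested, at 0.26, 0.41 and 0.16 FPKM against 0.08, 0.14 and 0.08 FPKM. Cdk1, Ccnb1 and Bub1b reached 0.5 FPKM in fewer than 3 libraries and were not tested. They were lower in each treated heart than in any Ang II heart. Pttg1ip, whose product binds securin, overlapped between the groups at 35.40, 35.72 and 27.44 FPKM against 25.70, 33.22 and 29.19 FPKM (-0.15, standard error 0.15, limma adjusted p = 0.548).

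The 5 markers of dividing cells, led by Mki67 and none at 0, summed to 3.40, 5.90 and 2.29 FPKM with Ang II alone and to 0.71, 0.87 and 0.91 FPKM with Tec. Pttg1 lay below this sum in Ang II replicates 1 and 2 and above it in the other 4 libraries. So Pttg1 was highest in the hearts where these markers were lowest, and the part of dividing cells in its level was not tested.

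For C1qtnf2, 15 of 16 listed family members, relatives and adiponectin receptors were found and 11 were tested. Limma called 0, 3 had unadjusted p < 0.05 (27.3%, beside 18.6%), and the groups did not overlap in 4 (36.4%, beside 21.8%). The log2 difference was negative in 7 of 11 with a median of -0.07, beside 80% of all tested genes. On the median-of-ratios scale it was negative in 4 of 11 with a median of 0.14, beside 48%. Tested members thus differed in both directions on either scale.

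Values of single relatives on other chromosomes follow. C1qtnf5, on chromosome 9, measured 9.58, 12.18 and 2.74 FPKM with Ang II alone and 1.63, 2.29 and 1.89 FPKM with Tec (log2 difference -1.46, standard error 0.43, limma adjusted p = 0.220). C1qtnf6, on chromosome 15, measured 14.90, 16.88 and 4.87 FPKM against 3.50, 3.79 and 3.42 FPKM (-1.38, standard error 0.39, limma adjusted p = 0.217). In both, as for C1qtnf2, the groups did not overlap and Ang II replicate 3 was nearest to the treated hearts. C1qtnf7 overlapped, at 4.83, 6.65 and 1.47 FPKM against 1.59, 2.55 and 1.28 FPKM (-0.80, standard error 0.40, limma adjusted p = 0.313). Without Ang II replicate 3, where limma called 4.22% of all tested genes, it called these 3, C1qtnf5 at -2.01 (adjusted p = 0.000746), C1qtnf6 at -1.88 (adjusted p = 0.000279) and C1qtnf7 at -1.28 (adjusted p = 0.00818).

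C1qtnf3, too low to be tested, was at 2.26, 2.89 and 0.14 FPKM with Ang II alone and at 0.03, 0.05 and 0.02 FPKM with Tec. C1qtnf4 was higher in each treated heart, at 3.14, 2.33 and 3.45 FPKM against 3.85, 4.23 and 4.78 FPKM (0.42, standard error 0.15, limma adjusted p = 0.231). C1qtnf9 overlapped, at 10.25, 11.59 and 18.43 FPKM against 17.88, 16.42 and 20.54 FPKM, with Ang II replicate 3 among the treated hearts. C1qtnf1 (-0.42) and C1qtnf12 (-0.07) overlapped too, and the receptor gene Adipor1 (-0.13) did not. For C1qtnf12 and Adipor1 these differences were smaller in size than the median of all tested genes (-0.17). Adiponectin (Adipoq) was highest in the treated heart with atrial transcripts, at 16.19 FPKM, and at most 5.16 FPKM elsewhere.

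Sums over markers of other cells are given beside C1qtnf2. The 5 fibroblast markers, led by Dcn and none at 0, summed to 436, 543 and 133 FPKM with Ang II alone and to 120, 193 and 136 FPKM with Tec. Each had a negative log2 difference, also after either rescaling, but their groups overlapped, limma called 0 and 2 of 5 had unadjusted p < 0.05, beside 18.6% of all tested genes. The 5 leukocyte markers, led by Lyz2 and none at 0, summed to 187, 322 and 150 FPKM against 119, 110 and 120 FPKM. Of the 4 tested, limma called 0, 4 had unadjusted p < 0.05 and 3 did not overlap between the groups, beside 18.6% and 21.8% of all tested genes. The 4 endothelial markers, led by Cdh5, summed to 64.2, 66.7 and 65.8 FPKM against 61.9, 66.1 and 58.9 FPKM. Of these, limma called 0, and 1 of 4, Kdr, had unadjusted p < 0.05 and no overlap, lower with Tec. The part of these cells in the level of C1qtnf2 was not tested.

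For Cyfip2, 21 genes were listed from the WAVE regulatory complex, the Rac GTPases, the Arp2/3 complex and the RNA-binding partners of the CYFIP proteins, and 19 were tested. Limma called 0, and 7 had unadjusted p < 0.05 (36.8%, beside 18.6%), each lower in the treated hearts. The groups did not overlap in 5 (26.3%, beside 21.8%). The log2 difference was negative in 17 of 19 with a median of -0.37, beside 80% of all tested genes. On the median-of-ratios scale it was negative in 16 of 19 with a median of -0.16, beside 48%. The high level of Cyfip2 in the treated hearts was thus not seen across its complex. The leukocyte markers given above were also lower with Tec. Their median log2 difference over 4 tested genes was -0.85, and -0.63 on the median-of-ratios scale. The part of leukocytes in the levels of this list was not tested.

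Cyfip1, the paralog that can take the place of Cyfip2 in the complex, measured 4.21, 4.98 and 3.32 FPKM with Ang II alone and 3.36, 3.40 and 3.41 FPKM with Tec (log2 difference -0.22, standard error 0.14, limma adjusted p = 0.386). Per length, Cyfip1 was above Cyfip2 in Ang II replicates 1 and 2 and below it in the other 4 libraries. The small subunit gene Brk1 was lower in each treated heart, at 68.40, 69.66 and 53.64 FPKM against 40.07, 44.30 and 47.38 FPKM (-0.52, standard error 0.14, limma adjusted p = 0.201). Abi3, another subunit gene, was at 5.55, 7.03 and 4.53 FPKM against 3.26, 3.03 and 3.68 FPKM (-0.62, standard error 0.16, limma adjusted p = 0.201). Nckap1l, a subunit gene of blood cells, had a difference of -0.71, and Actr3, of the Arp2/3 complex, one of -0.64, both without overlap. Fxr2, whose product binds RNA, was the 1 gene without overlap that was higher with Tec, at 18.79, 16.93 and 19.72 FPKM against 22.93, 23.57 and 19.81 FPKM (0.24, standard error 0.12, limma adjusted p = 0.302).

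Genes outside the window shared the pattern with Ang II replicate 3 in between. With the 4 chosen genes left out, and among 993 tested genes with an SD of at least 0.5 on the log2 scale, the highest Pearson r with Pttg1 over the 6 libraries belonged to the mitochondrial transcripts mt-Ty (0.998), mt-Rnr2 (0.996) and mt-Tv (0.990). For Cyfip2 they were mt-Tc (0.997), mt-Ty (0.995) and mt-Rnr2 (0.992). The transfer RNA genes mt-Ty (bases 5260 to 5326), mt-Tv (1025 to 1093) and mt-Tc (5192 to 5257) are so short that their FPKM is uncertain. The ribosomal RNA mt-Rnr2 was at 1034, 983 and 2057 FPKM with Ang II alone and at 3874, 3492 and 3739 FPKM with Tec. For C1qtnf2 the highest r belonged to Cd68 (0.999), Laptm5 (0.999) and Cmtm3 (0.996). Cd68 is a macrophage gene elsewhere on chromosome 11, and Laptm5 a lysosomal gene of blood cells. Cd68 was at 8.55, 9.95 and 4.81 FPKM against 3.46, 3.55 and 3.16 FPKM. These r describe likeness over 6 libraries that fall into 2 groups.

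The promoters of Pttg1, C1qtnf2 and Cyfip2 are shown since these neighbours differ together in the same libraries. Each of the 3 runs, from RefSeq on build GRCm38.p6, holds 250 bases before and 50 bases after the start, read 5′ to 3′ on the strand of the gene. Capitals mark matches on either strand to CCAAT for the CCAAT box, GGGCGG for the GC box, TATAAA for the TATA box, TTTGAA for the cell cycle homology region and CACGTG for the E-box. The RefSeq start differs from that of the deposited table, so the windows of Pttg1 and Cyfip2 lie within the extents given above for these genes. The runs are chr11:43425932-43426231 (minus strand, Pttg1), chr11:43474056-43474355 (plus strand, C1qtnf2) and chr11:46312309-46312608 (minus strand, Cyfip2).
Pttg1: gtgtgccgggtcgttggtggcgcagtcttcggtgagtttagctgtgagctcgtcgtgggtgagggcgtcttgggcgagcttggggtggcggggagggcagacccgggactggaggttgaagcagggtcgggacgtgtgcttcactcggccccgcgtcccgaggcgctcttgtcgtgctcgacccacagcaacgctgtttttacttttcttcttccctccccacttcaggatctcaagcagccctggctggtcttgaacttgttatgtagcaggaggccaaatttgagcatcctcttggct
C1qtnf2: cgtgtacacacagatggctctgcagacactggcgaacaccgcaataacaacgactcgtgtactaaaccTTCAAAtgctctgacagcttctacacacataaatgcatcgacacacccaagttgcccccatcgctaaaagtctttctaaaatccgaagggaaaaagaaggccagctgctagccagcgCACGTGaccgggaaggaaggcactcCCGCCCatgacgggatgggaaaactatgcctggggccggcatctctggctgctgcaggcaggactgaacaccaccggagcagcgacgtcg
Cyfip2: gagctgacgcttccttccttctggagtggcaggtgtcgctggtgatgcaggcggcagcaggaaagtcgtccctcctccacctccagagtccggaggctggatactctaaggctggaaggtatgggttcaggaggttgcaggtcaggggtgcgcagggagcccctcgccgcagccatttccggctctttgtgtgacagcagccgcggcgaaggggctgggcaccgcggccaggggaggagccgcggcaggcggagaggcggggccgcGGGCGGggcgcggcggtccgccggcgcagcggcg

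GC content was 60.3% for Pttg1, 55.0% for C1qtnf2 and 70.7% for Cyfip2, beside a median of 52.7% over 32851 promoters. They held 20, 18 and 29 CpG dinucleotides, beside a median of 7. The GC box, in 35.7% of all promoters, was matched at 1 place each in C1qtnf2 and Cyfip2. C1qtnf2 also held 1 cell cycle homology region (17.9%) and 1 E-box (7.15%). The CCAAT box (37.4%) and the TATA box (13.6%) were matched in none of the 3, and the window of Pttg1 held no match to any of these letters. No motif searched was shared by Pttg1 and Cyfip2, which were high in the treated hearts.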

How the data were processed

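Poly(A) RNA was sequenced in read pairs. The authors used Cutadapt and FastQC on the reads and deposited FPKM, rounded to hundredths. The submitters' processing notes list HISAT2 2.0, StringTie 1.3.0, Bowtie 0.12.2 and build mm8, without roles. The coordinates equal those of GENCODE M21 on GRCm38 for 27947 of 30832 shared genes (90.6%), the 4 described here included, so GRCm38 was used. Low values showed no usable spacing, so read totals per library were not recovered. FPKM summed to 516699, 517381 and 592733 for Ang II and to 623787, 581800 and 629989 for Ang II + Tec.

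From these values, log2(FPKM + 1) was fitted by limma 3.58.1 in R 4.3.3 (eBayes with a trend), with Benjamini-Hochberg adjustment over 13089 genes. An exact permutation test of 3 against 3 cannot go below 0.1. The members and lists were chosen with earlier results of these data known. Named were window genes with a mean of 1 FPKM or more in a group that were called or did not overlap, list genes that were called or did not overlap, Pttg1ip, Cyfip1 and the C1qtnf genes, and the 3 genes most like each of Pttg1, C1qtnf2 and Cyfip2. Slu7, Med7, Fndc9, Adipoq, Kdr, Gm22121 and Havcr2 were chosen after their values were seen.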

Additional observations from a re-analysis of the deposited data

How the results depend on the processing

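The direction of the 4 chosen genes, which their choice fixes, was the same under each of 14 alternatives. The log2 fold change ranged from 2.01 to 2.89 for Pttg1, from 1.68 to 2.64 for Cyfip2 and from -1.96 to -1.26 for C1qtnf2, in each case with both ends in the fits without 1 library. For Gm12167 it ranged from 1.77 to 3.09 without 1 library and was 3.30 with a pseudocount of 0.1, since its values in Ang II replicates 1 and 2 are low. The number of window genes called was 0 under each alternative. The number whose groups did not overlap, 4 of 16, was 7 with no filter on low FPKM (of 35 genes, beside 14.4% of all tested), 7 in the window from 41 to 49 Mb (of 27, beside 21.8%), and 5 to 9 without 1 library (beside 23.9% to 60.5%), the highest without Ang II replicate 3. Over all tested genes, the 21 calls became 3 with no filter and 0 to 544 without 1 library (3 without Ang II replicate 1, 6 without replicate 2 and 544 without replicate 3, and 0 without any 1 of the treated replicates, where 1219, 2324 and 1172 genes had an unadjusted p-value under 0.05). Calls without 1 library ranged from 0 to 3 in the C1q/TNF-related list and from 0 to 1 among the securin partners, and were 0 in the WAVE list. With the replicate block 22 genes were called, and the block left the log2 fold changes at 2.32, -1.53, 2.03 and 2.29. Same-numbered libraries deviated together in replicates 2 and 3 (r = 0.429 and 0.379) but not in replicate 1 (-0.0394), so the numbers were not taken as pairs. Apart from the values given here, the cause of each change was not tested. The number of mice limits these comparisons, and no interval from counts can be given.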

Other observations

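Gm22121 is annotated as a miRNA gene inside Ublcp1 on the other strand (chromosome 11, 44469013 to 44469066). It reached 0.5 FPKM in fewer than 3 libraries, so it was not tested. With Tec it measured 0.27, 1.45 and 0.92 FPKM, and with Ang II alone it was 0 each time. Reads of this gene and of Ublcp1 cannot be told apart without the strand. Havcr2, which encodes the immune receptor TIM-3 and was also untested, measured 0.49, 0.34 and 0.17 FPKM with Ang II alone and 0.11, 0.20 and 0.12 FPKM with Tec, with overlap between the groups.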
